A study of Mus musculus with 6 samples.

Results

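Crx, Nrl, Nr2e3, Otx2, Neurod1, Thrb, Rxrg, Rorb, Prdm1 and Mef2d encode transcription factors that specify photoreceptors or keep their identity. These 10 genes, of 52636 counted, were taken by name as 1 group, and all 10 were found by symbol. The RNA of single cells was counted with the 3′ v2 chemistry of 10x Genomics in papain-dissociated retinas of male C57BL/6J mice aged 12 months, of which 3 were Dram2 wt/wt and 3 carried Dram2 ko/ko. Dram2 encodes a lysosomal membrane protein linked to autophagy, and the ko allele is a constitutive CRISPR/Cas9 deletion of exon 4, carried by every cell of the animal rather than by photoreceptors alone. Replicate 3 of each genotype was in batch 1, and replicates 1 and 2 were in batch 2. The protocol text of the labels speaks of 1 sample per genotype and the design text of choroid, while the sample entries give 3 retinas per genotype, which were followed here. The labels do not say whether the 3 retinas of a genotype came from 3 mice, so the genotype p-values measure the spread between these samples only. Where 2 cell classes of the same retinas were compared, the spread was pooled over genes. Those p-values do not use a gene's own spread between retinas.

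Of 46375 cells, 45746 carried 1 of the authors' 5 types: photoreceptors (42359 cells), interneurons (2083), glia (942), mesenchymal cells (246) or the retinal pigment epithelium, RPE (116). Each retina held 3463728 to 6563762 UMIs, the unique molecular identifiers that count RNA molecules, and the photoreceptors had a median of 428 UMIs per cell against 1844 in interneurons. Levels are given as CPM, a gene's UMIs over all UMIs of that cell class in that retina scaled to a common total, and as the mean ± SD over 6 retinas unless said otherwise. Most marker lists were highest in their own type, but not all were confined to it. All 13 rod genes and all 10 cone genes were detected in photoreceptors, and the summed Müller glia genes reached 49263 to 62632 CPM in glia. The RPE genes reached 94751 to 126569 CPM in RPE cells, although Best1 was at 0 there, and the mesenchymal cells held endothelial (5191 to 12905 CPM), pericyte (3095 to 7602 CPM) and microglia (5226 to 26643 CPM) genes side by side. The Müller glia genes also reached 17738 to 27594 CPM in RPE cells, although Slc1a3 and Kcnj10 were at 0 there, and the amacrine genes stood at 1121 to 1591 CPM in glia, within their range of 187 to 2571 CPM in interneurons. The part of such other-cell RNA in the glia and RPE values of the members was not tested. Dram2 itself stood at 27.2, 30.4 and 57.8 CPM in photoreceptors of wt/wt retinas 1, 2 and 3 and at 26.3, 33.2 and 51.3 CPM in ko/ko retinas 1, 2 and 3. A 3′ count need not cover the deleted exon, so this does not check the genotype. The share of photoreceptor UMIs on Malat1, a nuclear RNA, was lowest in the 2 batch 1 retinas and in ko/ko retina 1 (8.80% to 12.0%) and highest in the other 3 (up to 17.7%). The cell names carry no barcodes, so barcodes shared between libraries could not be counted.

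In retinal progenitors, OTX2 opens the photoreceptor programme, and CRX, which it activates, drives phototransduction genes in rods and cones alike. NRL and its target NR2E3 then turn a photoreceptor precursor into a rod and hold back cone genes. The thyroid hormone receptor THRB with its partner RXRG takes part in cone opsin choice, RORB acts upstream of rod fate, and PRDM1 keeps precursors from becoming bipolar cells. NEUROD1 is a bHLH factor of retinal neurons and photoreceptors, and MEF2D works with CRX at photoreceptor enhancers. The retinas here were adult, so the data show which of these genes were still read in mature cells.

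The promoters of these genes are shown because the factors are known to act on each other, and a reader can see where their usual binding letters lie. RefSeq gave a window of 300 bases (250 before and 50 after a start, build GRCm38.p6) for 10 of 10 members, 16 windows in all. Capitals mark 4 sets of letters searched on both strands: TAATCC (or GGATTA), read by CRX and OTX2, AGGTCA (or TGACCT), a core site of nuclear receptors, CAGATG (or CATCTG), an E-box of bHLH factors such as NEUROD1, and TGCTGAC (or GTCAGCA), part of the site of NRL and other MAF factors. Among all 32851 windows of this length, 7.06% held TAATCC, 16.3% AGGTCA, 17.2% CAGATG and 4.67% TGCTGAC. A match is a description of letters, not a bound site. The first set holds the factors shared by rods and cones, then the rod pair, then the cone pair.
Crx, chr7:15879906-15880205, minus strand: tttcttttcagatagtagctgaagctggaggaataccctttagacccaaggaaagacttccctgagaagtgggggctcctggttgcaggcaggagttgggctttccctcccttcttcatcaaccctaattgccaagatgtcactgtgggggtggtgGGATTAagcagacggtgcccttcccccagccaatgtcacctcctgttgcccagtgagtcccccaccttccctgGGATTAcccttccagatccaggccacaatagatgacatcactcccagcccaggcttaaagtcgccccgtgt
Otx2 (the third of 4 windows), chr14:48665060-48665359, minus strand: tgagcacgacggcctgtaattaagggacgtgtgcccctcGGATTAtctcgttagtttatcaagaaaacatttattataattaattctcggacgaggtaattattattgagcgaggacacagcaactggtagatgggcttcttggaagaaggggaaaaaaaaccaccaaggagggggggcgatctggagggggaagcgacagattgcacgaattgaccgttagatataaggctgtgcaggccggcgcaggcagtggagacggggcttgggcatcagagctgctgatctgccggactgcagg
Nrl, chr14:55524203-55524502, minus strand: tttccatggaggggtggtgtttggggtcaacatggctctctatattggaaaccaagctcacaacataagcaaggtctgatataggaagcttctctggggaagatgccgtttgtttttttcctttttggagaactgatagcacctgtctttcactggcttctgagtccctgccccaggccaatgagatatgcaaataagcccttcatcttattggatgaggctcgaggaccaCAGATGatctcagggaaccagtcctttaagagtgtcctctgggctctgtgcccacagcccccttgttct
Nr2e3, chr9:59950030-59950329, minus strand: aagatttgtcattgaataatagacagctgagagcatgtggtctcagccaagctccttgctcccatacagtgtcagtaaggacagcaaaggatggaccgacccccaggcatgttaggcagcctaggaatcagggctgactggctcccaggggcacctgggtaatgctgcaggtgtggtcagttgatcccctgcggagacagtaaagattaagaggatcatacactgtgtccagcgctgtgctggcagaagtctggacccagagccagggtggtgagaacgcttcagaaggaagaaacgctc
Thrb (the first of 2 windows), chr14:17660710-17661009, plus strand: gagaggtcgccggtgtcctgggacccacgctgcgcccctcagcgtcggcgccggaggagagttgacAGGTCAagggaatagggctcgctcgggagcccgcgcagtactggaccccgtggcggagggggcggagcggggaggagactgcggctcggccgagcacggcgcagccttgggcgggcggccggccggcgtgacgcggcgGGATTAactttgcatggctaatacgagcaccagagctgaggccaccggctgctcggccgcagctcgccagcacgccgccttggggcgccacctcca
Rxrg (the second of 2 windows), chr1:167618015-167618314, plus strand: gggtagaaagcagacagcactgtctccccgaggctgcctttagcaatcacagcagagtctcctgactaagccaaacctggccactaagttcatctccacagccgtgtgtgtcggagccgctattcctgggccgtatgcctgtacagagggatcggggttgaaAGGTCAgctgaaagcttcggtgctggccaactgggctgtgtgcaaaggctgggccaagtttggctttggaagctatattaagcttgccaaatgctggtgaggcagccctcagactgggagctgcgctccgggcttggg
Crx held TAATCC on the other strand at 94 to 89 and at 21 to 16 bases before its start, and Thrb held it at 46 to 41 bases before the start. Otx2 held it at 211 to 206 bases before the start of this window. AGGTCA lay 184 to 179 bases before the start of Thrb and 88 to 83 bases before that of Rxrg, the partner pair of nuclear receptors. The first 40 bases after this Rxrg start lay in no GENCODE M21 transcript of the gene, so its distance rests on RefSeq alone. Nrl had CAGATG 19 to 14 bases before its start, and Nr2e3 held none of the 4 sets in its window. Of the windows not printed, the first of Rorb held TGCTGAC 77 to 71 bases before its start. The fourth of Otx2 held CAGATG 59 to 54 bases before its start. The others not printed held none, those of Neurod1, Prdm1 and Mef2d among them. For Otx2, Thrb and Rxrg the printed window is one that held a match. In all, 9 of the 16 windows held none of the 4 sets. TAATCC was in 3 of the 16, AGGTCA and CAGATG in 2 each and TGCTGAC in 1.

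In GENCODE M21 (GRCm38), the gene bodies are Crx at chr7:15865947-15879968, Nrl at chr14:55518978-55524981, Nr2e3 at chr9:59942771-59960659, Otx2 at chr14:48657677-48673819, Neurod1 at chr2:79452521-79456751, Rorb at chr19:18930605-19111196 and Prdm1 at chr10:44437177-44528501, all on the minus strand, and Thrb at chr14:17660261-18038090, Rxrg at chr1:167598384-167639623 and Mef2d at chr3:88142372-88172086 on the plus strand. Nr2e3, Otx2 and Neurod1 each overlap 1 other gene on their own strand, Neurod1 that of the protein-coding gene Cerkl. How reads in such stretches were shared out is not given in the sources used here, so the counts of these 3 genes are uncertain to that extent.

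Photoreceptors had the highest mean level for 9 of the 10 members, and Otx2 was the exception. By the share of cells with a UMI after thinning to 300 UMIs it was 8 of 10, with Rxrg as the other exception, at 23 of 28389 photoreceptors and 4 of 2048 interneurons. Of the UMIs in typed cells, 96.8% of those of Nr2e3, 96.5% of those of Prdm1 and 95.9% of those of Nrl lay in photoreceptors, which held 76.4% of the UMIs of all genes. The types are the authors' clusters of these same cells, so the levels between types are described without a test. All members but Prdm1 and Rxrg had at least 2526 UMIs in typed cells, and those 2 had 231 and 215.

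**Figure D1:**
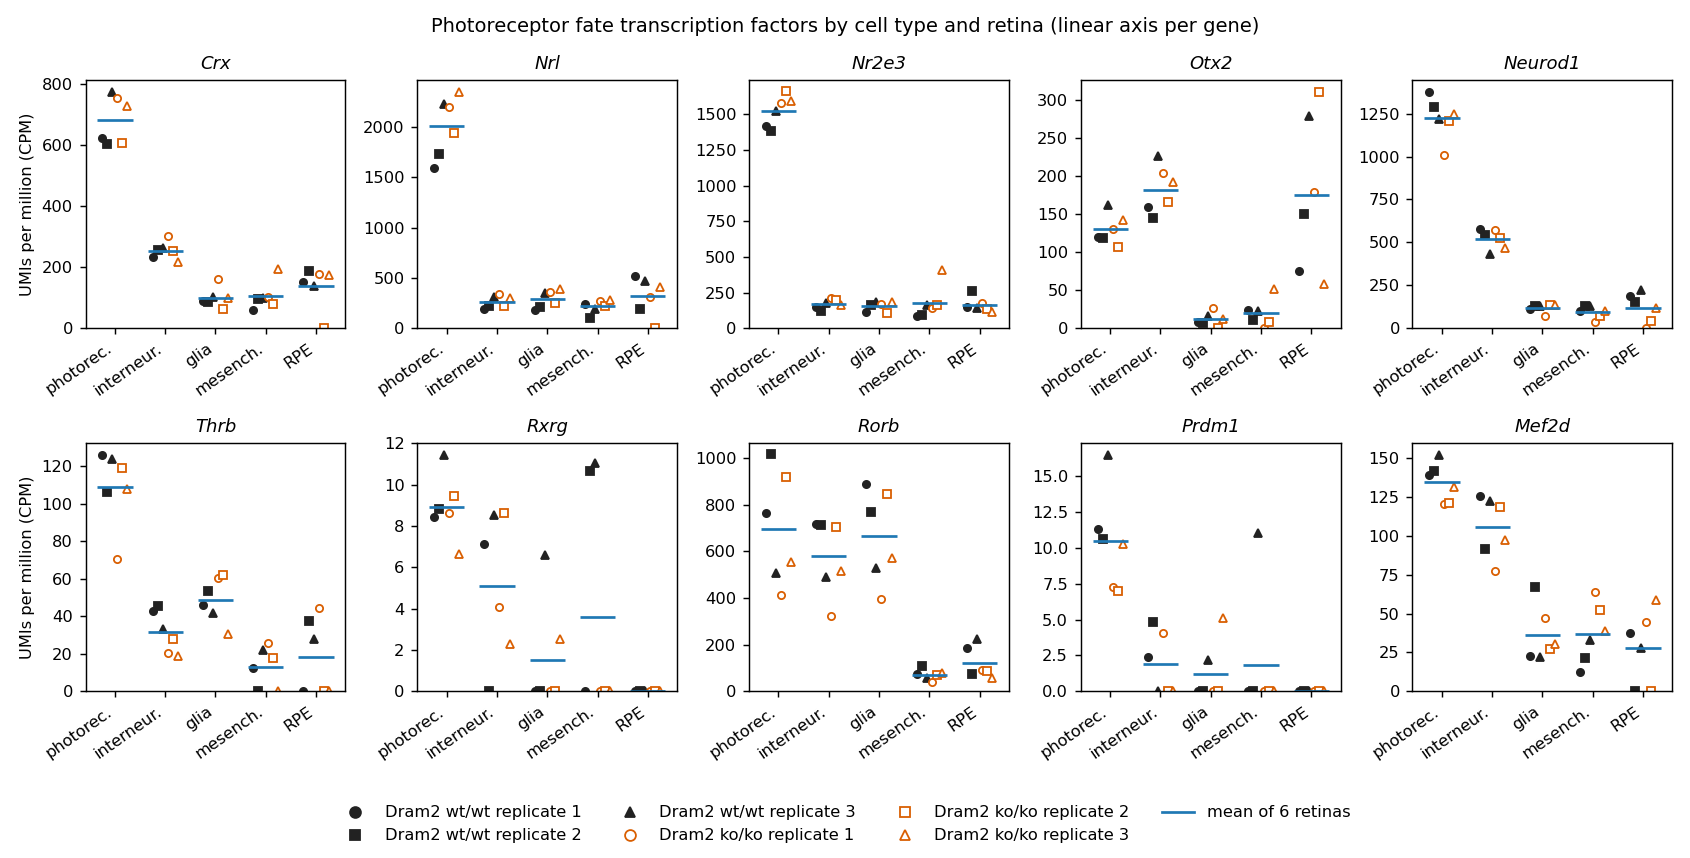
CPM (linear axis from 0, 1 scale per gene) of the 10 members in the authors' 5 types, 1 point per retina with the mean of 6 retinas as a line. Photoreceptors are apart from every other type for Crx, Nrl, Nr2e3, Neurod1 and Thrb, while the points of Otx2 overlap with those of interneurons and the points of Rorb with those of glia.

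Nrl, the rod-determining leucine zipper factor, stood at 1595, 1733 and 2231 CPM in photoreceptors of wt/wt retinas 1, 2 and 3 and at 2200.3, 1941 and 2355 CPM in ko/ko retinas 1, 2 and 3, with a mean of 2009 ± 303 CPM. In the other 4 types its mean ran from 218 ± 64.5 CPM (mesenchymal cells) to 318 ± 196 CPM (RPE), and the ranges of those 4 types overlapped with each other but not with photoreceptors. Nr2e3, an orphan nuclear receptor that represses cone genes in rods, stood at 1417, 1383 and 1526 CPM in the wt/wt and at 1579.8, 1664 and 1594 CPM in the ko/ko photoreceptors, and at no more than 178 ± 119 CPM on average elsewhere. Both genes were thus seen at a like low level in each of the other types.

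That low level was set beside rod RNA. The 13 rod genes, Sag, Gnat1 and Pdc among them, summed to 71387 to 112383 CPM in photoreceptors and to 11135 to 16044 CPM in interneurons and 7145 to 16285 CPM in glia. If a member came with the rod genes of a type in the ratio found in rods of the same retina, interneurons would hold 1272 Nrl UMIs, and they held 1183, a ratio of 0.93. The ratio of Nrl was 1.09 in glia, 0.91 in mesenchymal cells and 1.26 in the RPE, and that of Nr2e3 was 0.77 in interneurons, 0.79 in glia, 0.97 in mesenchymal cells and 0.82 in the RPE. The levels of Nrl and Nr2e3 outside photoreceptors were therefore close to what the rod RNA in those cells would carry, and whether these cells also express them was not tested. In cells thinned to 300 UMIs, a Nrl UMI was seen in 47.6% of rods (95% Wilson interval 47.0% to 48.2%), in 8.45% of interneurons (7.32% to 9.73%) and in 8.25% of glia (6.64% to 10.2%). Before thinning these shares were 52.9%, 37.7% and 33.8%, at medians of 417, 1844 and 1683 UMIs per cell, and thinning left out 13895 rods, 35 interneurons and 21 glia that were shallower. The intervals cover counting error only.

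**Figure D2:**
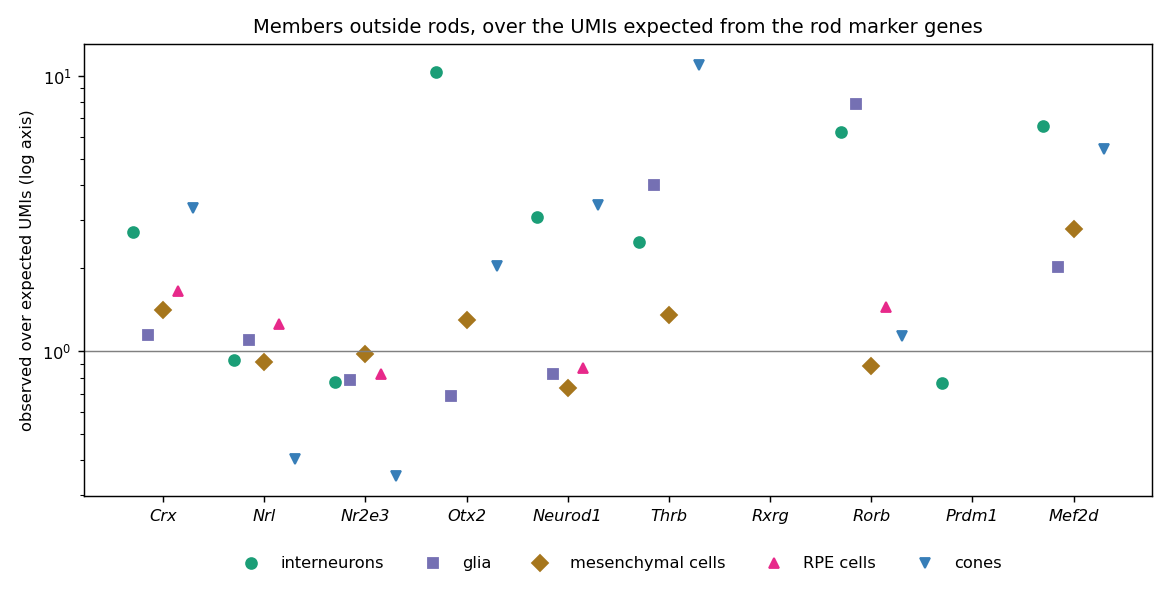
Observed UMIs of each member over those expected from the rod genes of the same cells at the ratio of rods (log axis, 1 point per member and cell class, 6 retinas summed, line at 1). Nrl and Nr2e3 sit near 1 outside photoreceptors, Otx2 sits at 10.3 in interneurons, and 12 points with under 5 expected UMIs (Rxrg among them) are not drawn.

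Crx, the homeodomain factor of both photoreceptor classes, stood at 623, 602 and 774 CPM in the wt/wt and at 753, 606 and 728 CPM in the ko/ko photoreceptors. It reached 254 ± 28.6 CPM in interneurons, above RPE cells (139 ± 70.4 CPM) in 6 of 6 retinas, and its ratio to the rod RNA was 2.70 in interneurons, over 1 in all 6 retinas. In glia the ratio was 1.14 and the mean level 100.04 ± 33.1 CPM, so Crx in glia was near that floor. Neurod1 followed the same order, from 1224 ± 123 CPM in photoreceptors to 521 ± 57.8 CPM in interneurons and 120.0 ± 24.2 CPM in glia. Its ratio to the rod RNA was 3.06 in interneurons and 0.83 in glia.

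Otx2, the factor at the head of the photoreceptor programme and also a factor of bipolar and RPE cells, had a different order. It stood at 159, 144 and 226 CPM in interneurons of wt/wt retinas 1, 2 and 3 and at 203, 166 and 192 CPM in those of ko/ko retinas 1, 2 and 3, against 107 to 161 CPM in photoreceptors. Interneurons were above photoreceptors in every retina, although the ranges touch across retinas. RPE cells averaged 175 ± 103 CPM on only 28 UMIs, 58.6 to 310.5 CPM, so their place against interneurons and photoreceptors is not settled at this depth. The ratio of Otx2 to the rod RNA was 10.3 in interneurons and 10.9 in RPE cells, over 1 in all 6 retinas in both, and 0.69 in glia.

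Rorb, an orphan nuclear receptor needed for rods and for several inner retinal neurons, was shared most widely. Its mean was 695 ± 242 CPM in photoreceptors, 667 ± 197 CPM in glia and 578 ± 162 CPM in interneurons, with overlapping ranges, and 120 ± 67.4 CPM in RPE cells. Photoreceptors were above glia in only 3 of 6 retinas. The ratio to the rod RNA was 7.92 in glia and 6.24 in interneurons. Rorb moved widely between retinas: rods held 808, 1072 and 545 CPM in wt/wt retinas 1, 2 and 3 and 429.6, 966 and 583 CPM in ko/ko retinas 1, 2 and 3. The 3 retinas with the most Rorb in rods also had the most in cones, interneurons and glia, and they were the 3 with the highest Malat1 share in photoreceptors. The part of Malat1 or of batch in this spread was not tested.

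Thrb encodes a thyroid hormone receptor known for its part in cones. Its counts are per gene, so transcripts from its 2 promoter windows are not told apart in any class. It averaged 109 ± 20.4 CPM in photoreceptors, 49.0 ± 12.0 CPM in glia and 31.5 ± 11.1 CPM in interneurons. Photoreceptors were above glia in every retina and did not overlap with them, and glia were above interneurons in all 6 retinas with overlapping ranges. Glia held 69 Thrb UMIs where the rod RNA would bring 17.3, and they were above that ratio in all 6 retinas. Mef2d, a MADS-box factor used in many tissues, was at 134 ± 12.3 CPM in photoreceptors and 105 ± 19.6 CPM in interneurons, and its ratio to the rod RNA in interneurons was 6.58. Rxrg averaged 8.90 ± 1.57 CPM and Prdm1, a zinc finger repressor, 10.5 ± 3.45 CPM in photoreceptors. Neither had a UMI in the 116 RPE cells, and 0 of the 108 cells thinned to 300 UMIs allows up to 2.78% of cells with a UMI, which sets no limit on the cells that express either gene.

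Rods and cones were told apart within the authors' photoreceptors to ask which members separate the 2 classes. Cones were the 939 cells with at least 5 UMIs of 10 cone genes (Opn1sw, Opn1mw and Arr3 among them) that made up at least 1% of the cell's UMIs, and rods were the 40725 cells with at most 2 such UMIs and at least 1 UMI of the rod genes. No member is in either list, so the split did not use them. Each retina gave 109 to 219 cones, with a median of 1857 UMIs per cell against 417 in rods. Most cones lay far above the cut, since 830 held 40 or more cone UMIs and 28 held 5 to 9. The 695 photoreceptors in neither class included 631 with 3 to 4 cone UMIs, so the gap between the classes was set in part by the rule. The summed cone genes, which made the split, reached 61281 to 71037 CPM in cones and 639 to 971 CPM in rods.

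Of the 10 members, 4 were higher in cones (Rxrg, Prdm1, Thrb and Mef2d) and 4 were higher in rods (Nr2e3, Nrl, Rorb and Otx2), while Crx and Neurod1 did not pass the test. The test was edgeR's quasi-likelihood test on the summed UMIs with the retina as a block, adjusted over 12963 genes. Its spread was pooled over genes, so SE and p do not reflect how the difference of a single gene varied between retinas. Differences between these classes were common: 38.6% of the genes tested passed, 19.0% higher in cones and 19.6% higher in rods, and the median log2 difference of all genes was -0.05 against 0.02 for the members. All 8 calls held under each of the 18 other settings tried, the wt/wt retinas alone, the ko/ko retinas alone and batch 2 alone among them.

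**Figure D3:**
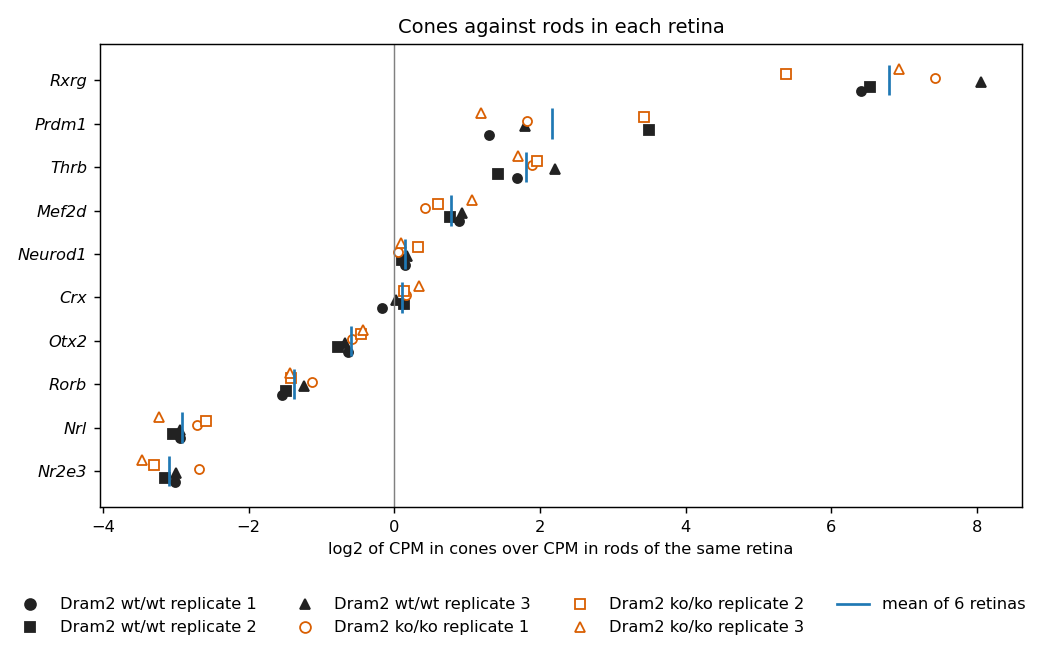
log2 of the CPM in cones over the CPM in rods of the same retina (x axis) for each member (y axis), 1 point per retina and a bar at the mean of 6 retinas. Nr2e3 and Nrl lie near -3 and Rxrg above 5 in every retina, while Crx and Neurod1 lie close to 0.

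The rod pair was lower in cones by the largest amounts of the 10. Nrl stood at 1711, 1871 and 2492 CPM in rods of wt/wt retinas 1, 2 and 3 and at 222, 229 and 325 CPM in their cones. In ko/ko retinas 1, 2 and 3 the rods held 2322, 2081 and 2511 CPM and the cones 354, 346 and 268 CPM. Cones lay far below rods in every retina, with a log2 difference of -3.01 (SE 0.10, adjusted p = 1.03e-212, edgeR), or 8.08-fold lower. Nr2e3 fell from 1646 ± 117 CPM in rods to 195 ± 37.2 CPM in cones, a log2 difference of -3.21 (SE 0.10, adjusted p = 1.66e-218). The cones also carried rod RNA, 26686 to 36270 CPM over the 13 rod genes, some of which (such as Pdc) cones are known to make. The UMIs of Nrl in cones were 0.41 times and those of Nr2e3 0.35 times what these rod genes would bring at the ratio found in rods. Neither ratio was over 1 in any retina. With 1 gene of the rod list alone, the ratios were 1.02 for Nrl (516 UMIs against 507) and 0.88 for Nr2e3 (339 against 386). The expected UMIs in cones thus turn on which rod genes are used, and whether cones express Nrl or Nr2e3 was not tested.

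Rxrg was nearly absent from rods. It had 1 to 7 UMIs per retina in rods, 19 in all, or 0.35 to 2.16 CPM. In cones it stood at 91.1, 93.0 and 91.5 CPM in wt/wt retinas 1, 2 and 3 and at 129, 89.9 and 86.3 CPM in ko/ko retinas 1, 2 and 3, on 167 UMIs. The log2 difference was 6.36 (SE 0.27, adjusted p = 3.95e-117), and the levels did not overlap. Thrb, its receptor partner, was present in both classes: it averaged 317 ± 71.0 CPM in cones and 89.8 ± 15.5 CPM in rods, higher in cones in 6 of 6 retinas, with a log2 difference of 1.72 (SE 0.10, adjusted p = 5.27e-69). After thinning to 300 UMIs, 9.71% of cones (95% Wilson interval 7.95% to 11.8%) and 2.60% of rods (2.42% to 2.80%) had a Thrb UMI, and 1.96% of cones (1.25% to 3.08%) against 0.0186% of rods had one of Rxrg.

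Prdm1, known from the developing photoreceptor, was at 36.3 ± 17.1 CPM in adult cones on 67 UMIs and at 8.02 ± 3.40 CPM in rods on 151 UMIs. Its log2 difference was 2.06 (SE 0.26, adjusted p = 7.56e-14), and single retinas ranged from 21.6 to 64.4 CPM in cones and from 3.70 to 13.2 CPM in rods. Mef2d was higher in cones in 6 of 6 retinas, at 218 ± 41.8 against 125 ± 7.76 CPM, a log2 difference of 0.71 (SE 0.10, adjusted p = 3.39e-11). In rods Mef2d was the steadiest member across retinas, from 116 to 135 CPM.

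Rorb and Otx2 were the other members higher in rods. Rorb averaged 734 ± 255 CPM in rods and 278 ± 78.5 CPM in cones, and although its level moved with the retina, cones were lower within each of the 6 and the log2 difference was -1.50 (SE 0.09, adjusted p = 1.25e-54). Otx2 stood at 123, 123 and 169 CPM in rods of wt/wt retinas 1, 2 and 3 and at 135, 110.2 and 145 CPM in those of ko/ko retinas 1, 2 and 3. In cones it ran from 71.5 to 108 CPM, below every rod value, with a log2 difference of -0.70 (SE 0.13, adjusted p = 2.16e-07).

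Crx and Neurod1 were close in the 2 classes. Crx averaged 733 ± 129 CPM in cones and 677 ± 76.1 CPM in rods, with a log2 difference of -0.0004 and a 95% interval from -0.16 to 0.16. Neurod1 averaged 1348 ± 167 CPM in cones and 1212 ± 120 CPM in rods, with a log2 difference of 0.04 and an interval from -0.11 to 0.20. The CPM of Neurod1 was higher in cones in 6 of 6 retinas and that of Crx in 5 of 6, but the fit uses TMM factors, and with total UMIs only the differences were 0.11 for Crx and 0.15 for Neurod1, also short of the threshold. Differences over about 0.2 on the log2 scale lie outside both intervals, but these hold for the TMM fit with its pooled spread only. The log2 of the CPM in cones over that in rods averaged 0.10 ± 0.17 for Crx and 0.15 ± 0.10 for Neurod1 (SD over 6 retinas).

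Other transcription factors and regulators linked to this programme or to retinal neurons were taken as a list of 26 partners. Of these, 19 were tested between rods and cones, 5 passed higher in cones and 7 higher in rods, and the median log2 difference of the 19 was -0.22. In cones the homeodomain genes Six6 (5.50, SE 0.13) and Six3 (3.75, SE 0.24) and the zinc finger gene Sall3 (6.83, SE 0.34), which acts in cone differentiation, were higher on the log2 scale. In rods Samd11 (-2.92, SE 0.10) and Samd7 (-1.58, SE 0.14), partners in a rod silencing complex, were higher, as were Mef2c (-2.44, SE 0.10), Esrrb (-2.46, SE 0.18), an orphan receptor active in rods, and Pias3 (-0.83, SE 0.13), a SUMO ligase that acts on NR2E3. Mef2c thus differed in the direction opposite to that of its relative Mef2d.

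Cones were also split by opsin, since THRB is known for its part in the choice of the M opsin gene Opn1mw over the S opsin gene Opn1sw. Of the 939 cones, 298 had more Opn1mw and 607 more Opn1sw UMIs. None of the 9 members tested passed (0 at an adjusted p under 0.05 and 2 at an unadjusted p under 0.05, edgeR with the retina as a block), and 1.67% of the 4311 genes tested did. Thrb averaged 348 ± 103 CPM in Opn1mw cones and 304 ± 56.7 CPM in Opn1sw cones, a log2 difference of 0.18 with a 95% interval from -0.07 to 0.43. Rxrg averaged 98.7 ± 44.7 and 97.6 ± 10.7 CPM, a difference of -0.10 with an interval from -0.59 to 0.38. Otx2 was the member with the lowest unadjusted p: 62.9 ± 20.1 CPM in Opn1mw cones and 99.5 ± 23.6 CPM in Opn1sw cones, lower in 5 of 6 retinas, with a log2 difference of -0.73 (SE 0.27, adjusted p = 0.233) on 38 and 118 UMIs. DESeq2 and limma-voom also called 0 members. Of the 13 partners tested, 2 passed: Samd7 was higher in Opn1mw cones (log2 difference 2.08, SE 0.30, adjusted p = 2.11e-09) and Six6 higher in Opn1sw cones (-0.52, SE 0.14, adjusted p = 0.0116).

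Within interneurons, bipolar and amacrine cells were told apart because OTX2 and CRX are known in bipolar cells. The 1643 bipolar-called cells had at least 3 UMIs of 12 bipolar genes and at least 3 times as many as of 12 amacrine genes, and the 315 amacrine-called cells the reverse. No member is in either list. Amacrine-called cells were few in batch 2 (3 to 15 per retina) and more in batch 1 (139 and 130), so this comparison rests mostly on the batch 1 retinas. Of 8 members tested, 6 passed lower in amacrine cells and 1 higher (edgeR, retina as a block), while 29.6% of 9268 genes passed, 17.8% higher in bipolar and 11.8% higher in amacrine cells.

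Otx2 was the member that separated these classes most. It stood at 172, 162 and 348 CPM in bipolar-called cells of wt/wt retinas 1, 2 and 3 and at 210.5, 187 and 304 CPM in ko/ko retinas 1, 2 and 3. In amacrine-called cells it had 11 UMIs in all, none in the 4 batch 2 retinas and 15.4 and 8.42 CPM in the batch 1 retinas, and the rod RNA of those cells would bring 14.6 UMIs. The log2 difference, amacrine minus bipolar, was -4.95 (SE 0.31, adjusted p = 8.73e-56). With 4 of 6 amacrine sums at 0 its size is loosely set: it ran from -8.10 (batch 2 retinas alone, all at 0) to -4.40 (limma-voom) over the settings tried. Crx averaged 290 ± 38.2 CPM in bipolar-called and 129 ± 57.8 CPM in amacrine-called cells (-1.82, SE 0.20, adjusted p = 8.04e-18), and Neurod1 593 ± 21.9 and 216 ± 56.5 CPM (-1.79, SE 0.19, adjusted p = 6.04e-19). These 3 calls held under every other setting tried. Of the 26 partners, 19 were tested here, 5 passed higher in amacrine-called and 7 higher in bipolar-called cells, among them Vsx1, which the bipolar gene list itself holds. In bipolar-called cells the ratio of Otx2 to the rod RNA was 12.9, that of Neurod1 3.40 and that of Crx 3.05, all over 1 in 6 of 6 retinas.

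Rorb went the other way, at 829 ± 331 CPM in amacrine-called and 526 ± 172 CPM in bipolar-called cells, higher in 6 of 6 retinas (0.44, SE 0.17, adjusted p = 0.0312). Its call was lost without wt/wt retina 3, without ko/ko retina 2 or without ko/ko retina 3 (adjusted p = 0.346, 0.237 and 0.271). Mef2d (-0.67), Nr2e3 (-0.63) and Nrl (-0.59) also passed lower in amacrine-called cells. The rod genes were lower there too, at 6281 to 11286 CPM against 11533 to 16375 CPM in bipolar-called cells. The ratio to the rod RNA was 0.89 in bipolar-called and 1.09 in amacrine-called cells for Nrl, and 0.74 and 0.84 for Nr2e3. For Mef2d it was 6.55 (365 UMIs against 55.7) and 7.32 (89 against 12.2). Under DESeq2, in either genotype alone or in batch 2 alone, 3 or 4 members passed, and without single retinas 3 to 7 passed. Total UMIs in place of TMM shifted the median of all genes from -0.13 to 0.02 and left 1526 genes higher and 1306 lower in amacrine cells, against 1094 and 1649, with 7 members called under both.

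**Figure D4:**
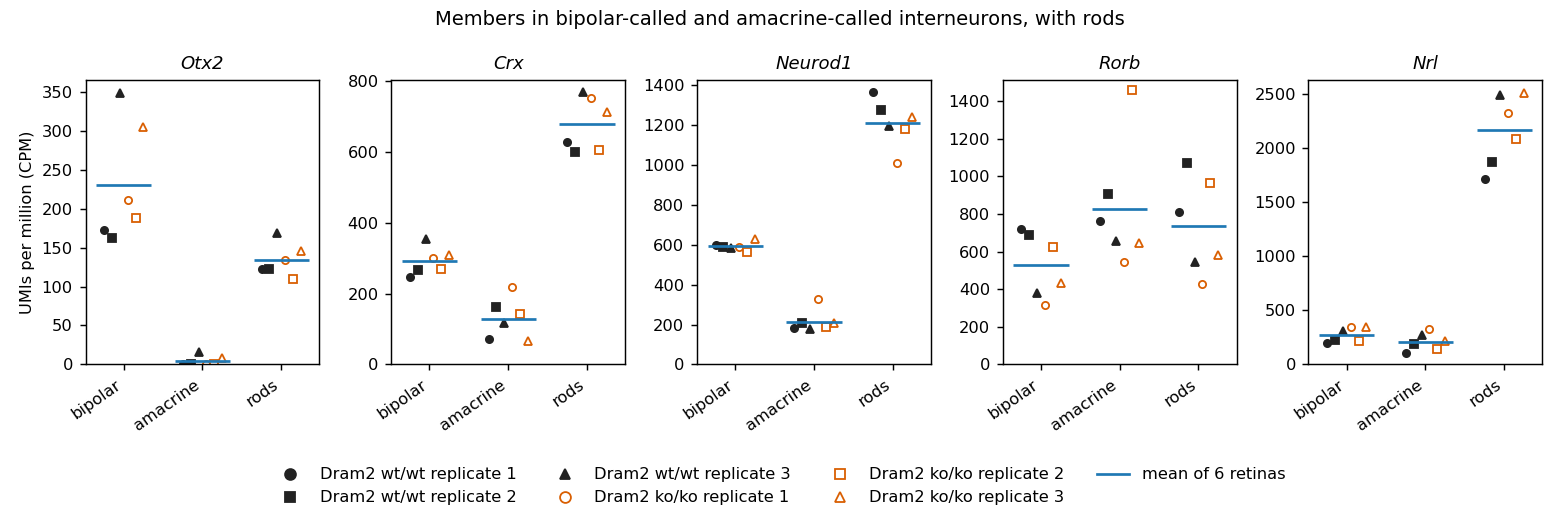
CPM (linear axis from 0) of 5 members in bipolar-called and amacrine-called interneurons, with rods for scale, 1 point per retina and a line at the mean of 6. Otx2 is at 162 to 348 CPM in bipolar-called cells and at 15.4 CPM or less in amacrine-called cells.

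The comparison the study set out to make was between genotypes, to see what loss of Dram2 changes in each cell type at 12 months. No member tested differed between ko/ko and wt/wt retinas at an adjusted p under 0.05 in any of the authors' 5 types or in rods or cones. Of the authors' types, photoreceptors had 10 members tested, interneurons 8, glia 6, mesenchymal cells 2 and RPE cells 1. Rods had 9 members tested and cones 10. The background was the same: 0.0% of genes passed in each of these 7 classes (13053, 7698, 4130, 1717, 308, 12297 and 5180 genes tested). Per class, 11 to 150 genes had an unadjusted p under 0.05, and a share of 0.05 is what no difference would give. Mesenchymal cells (150 of 1717) were above that share. Every other class was below it, photoreceptors (109 of 13053) and RPE cells (11 of 308) among them. Of 46 tests of a member, 1 had an unadjusted p under 0.05. With batch as a term in the fit, no member was called either, and DESeq2 and limma-voom also called 0 members in each class. Batch 1 holds 1 retina per genotype, so it gives no test of its own.

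**Figure D5:**
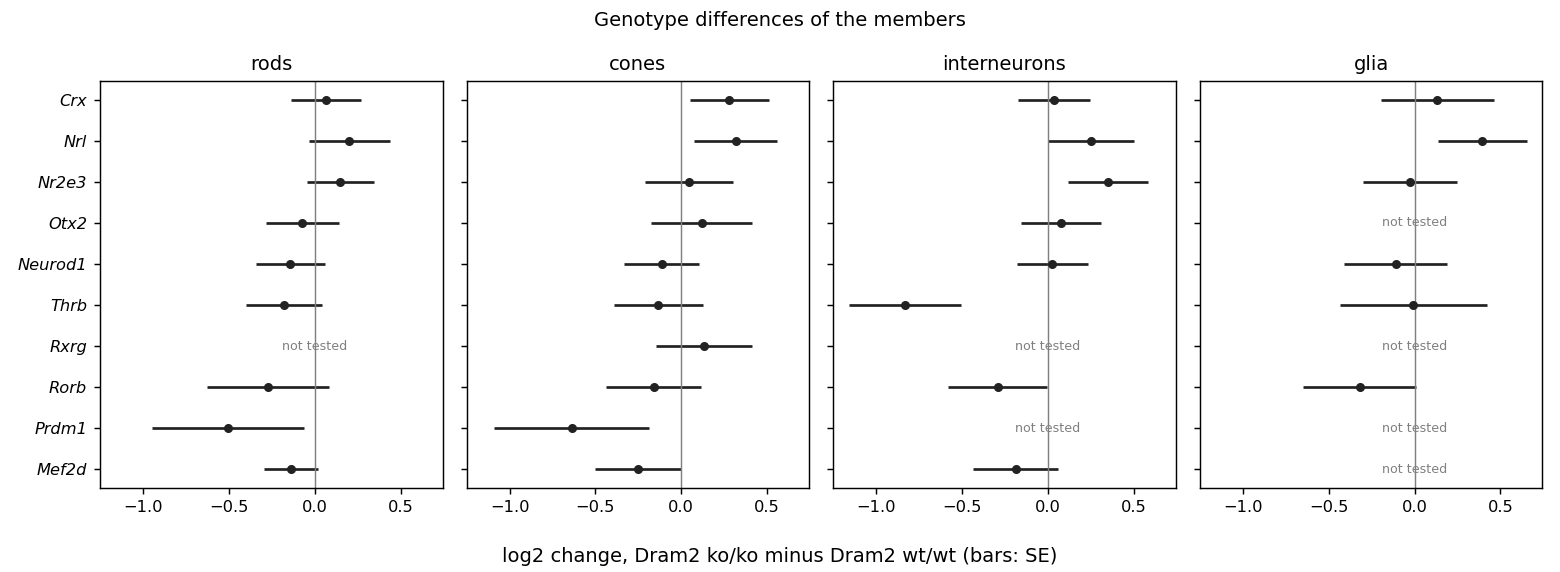
log2 change of ko/ko minus wt/wt retinas (x axis, bars are SE from edgeR, 3 retinas per genotype) for each member tested in rods, cones, interneurons and glia. A member without a test in a class is marked as not tested. No point passed the adjusted threshold, and Thrb in interneurons lies farthest from 0 at -0.83.

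In rods the changes ran from -0.51 (Prdm1) to 0.20 (Nrl) on the log2 scale. With 1 retina left out, that of Prdm1 was -0.93 to -0.18 and that of Nrl 0.08 to 0.39. Nrl stood at 1711 to 2492 CPM in wt/wt and 2081 to 2511 CPM in ko/ko rods, a change of 0.20 with a 95% interval from -0.34 to 0.75. Crx changed by 0.07 (interval -0.40 to 0.54) and Nr2e3 by 0.15 (interval -0.30 to 0.60). A log2 change of 1 lies outside the interval of each of these 3 genes. Rorb had a wider interval, with a change of -0.27 (interval -1.09 to 0.54).

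In cones the changes ran from -0.64 (Prdm1) to 0.32 (Nrl). With 1 retina left out, that of Prdm1 was -1.02 to -0.34 and that of Nrl 0.21 to 0.54. Rxrg stood at 91.1 to 93.0 CPM in the wt/wt and 86.3 to 129 CPM in the ko/ko retinas (0.13, interval -0.47 to 0.73), and Thrb changed by -0.13 (interval -0.69 to 0.42). The difference between the genotype effects in cones and in rods was tested after the data were seen, and it passed for 0 of 10 members and 0 of 12963 genes (489 at an unadjusted p under 0.05).

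In interneurons Thrb stood at 42.7, 45.7 and 33.4 CPM in wt/wt retinas 1, 2 and 3 and at 20.3, 28.1 and 19.1 CPM in ko/ko retinas 1, 2 and 3. The change of -0.83 (SE 0.33, adjusted p = 1.00, edgeR) did not pass over 7698 genes, and it rests on 127 UMIs. Beside it, the cone gene Arr3 stood at 267 to 419.8 CPM in the wt/wt and 141 to 260.4 CPM in the ko/ko interneurons, while the 10 cone genes summed to 4087 to 4369 and 2892 to 5074 CPM. That sum was 4178 to 5577 CPM in bipolar-called and 109 to 1683 CPM in amacrine-called cells, and whether all of it is cone RNA was not tested. The part of cone RNA in the Thrb values was not tested either. The test of this effect against that in photoreceptors, also chosen after the data were seen, gave a difference of -0.66 (SE 0.31, adjusted p = 1.00). In glia, where Thrb was also found, the change was -0.01. Nr2e3 in mesenchymal cells had a change of 0.97 (SE 0.47, adjusted p = 0.574, edgeR), and of 0.39 to 1.26 with 1 retina left out. The summed rod genes stood at 6836 to 12429 CPM in the wt/wt and 9214 to 15897 CPM in the ko/ko mesenchymal cells. Of the 26 partners, none of those tested passed in any class. Photoreceptors had 19 tested, rods 18, interneurons 17, cones 13, glia 12 and mesenchymal cells 4. In RPE cells 0 were tested.

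The genes whose levels were most like those of a member were ranked by Pearson correlation of log2(CPM + 1) over the 30 sums of 6 retinas and 5 types, among 9920 genes. These correlations are descriptions, since the 30 sums share retinas and types. Nr2e3 was most like Guca1a (r = 0.97), with Gnb1 (0.96) also among the first 3, and Crx and Nrl were both most like Rpgrip1 (r = 0.93 for each) and like each other (0.93). Neurod1 was most like Rd3 (0.94), and Epb41 and Ap2a2 followed. Thrb was most like Bbs4 (0.85), Dpf3 and Tmem218, and Otx2 like Cpe (0.87), Cox6c and Gzmm. Rxrg was most like Gm10353 (0.91) and Zswim3, followed by the cone gene Pde6h (0.84). Rorb was most like Peg3 (0.95), Gm48114 and Zkscan7, Mef2d like Lcor (0.93), Tnrc6c and Eif1ad, and Prdm1, on few UMIs, like Gm7239 (0.89), Agr2 and Gm44856.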

How the data were processed

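Single-cell libraries of 6 mouse retinas were analysed. Per the study's methods the authors aligned reads to mm10 using exons only, and the submitters' processing notes name Cell Ranger 3.1.0. The counts the authors deposited are UMIs per gene and cell without any scaling, for 52636 genes and 46375 cells, and a second table gives each cell's sample, batch and type. The types came from Louvain clusters after Seurat integration over the batch. Symbols came from GENCODE M21 (52489 identifiers matched). No column was left unused. Doublets were not called or removed, and the 629 cells without a type entered no comparison.

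Here UMIs were summed per retina and class, and levels are CPM of that sum. Differences were tested with edgeR 4.0.16 (glmQLFit and glmQLFTest, TMM factors, filterByExpr) and Benjamini-Hochberg adjustment over all genes tested, at an adjusted p under 0.05. Genotype was fitted as the only term on 3 against 3 sums, since the study names no covariate, and the other comparisons had the retina as a block. Cones with at least 2 opsin UMIs were split by the opsin with more UMIs, and ties were left out. The study used limma-voom for this step, which was run as an alternative (limma 3.58.1), as was DESeq2 1.42.0, in R 4.3.3. Tests made on counts simulated from these samples recovered 93.6% of genes changed by 2 on the log2 scale for rods against cones (187 such genes among 12243) and 97.4% for genotype in photoreceptors (190 among 13014). The simulation used the same spread for every gene and no difference between batches. It does not show how often changes smaller than 2 would be found. SE are those of the fitted log2 differences.

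Depth was 3463728 to 6563762 UMIs per retina. The closest 2 libraries, wt/wt replicates 1 and 2, had a chi-square of 1.67 per degree of freedom over genes, so none was counted as a repeat. Where no UMI was seen, the limit given is 3 UMIs or cells over the total, and intervals of shares are 95% Wilson intervals. Intervals of log2 changes are the estimate ± the SE times the 95% t quantile on edgeR's total degrees of freedom, which in the fits with the retina block are so many that the quantile is the normal one, since the spread was pooled over genes.

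The members and gene lists were chosen with earlier results of these data known. Named genes were the 10 members, partners past the threshold between rods and cones (at most 8, smallest p first), the 3 genes most like each member with at least 100 UMIs, Dram2, and Arr3, Opn1sw and Opn1mw where a result turns on them. Samd7 and Six6 in the opsin comparison are such partners. Vsx1 is in both the partner and the bipolar list and is named for that overlap. Some items that these rules name are not reported here. Promoter windows came from RefSeq (GRCm38.p6), and the first 40 bases after the start lay in a GENCODE M21 transcript of the gene for 14 of 16. Those without such a match were the 2 windows of Rxrg.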

Additional observations from a re-analysis of the deposited data

Results flagged for a closer look

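Of 47 sets of 6 retinas, each a member in 1 cell class, 3 held a retina far from the other 5 by Dixon's criterion, and chance alone gives about 1 in 20. The retina was ko/ko 1 in all 3. Neurod1 stood at 73.7 CPM in glia of that retina against 115 to 138 CPM in the others. Thrb stood at 70.9 CPM in its photoreceptors, with the nearest of the others at 107 CPM. Rxrg stood at 129 CPM in its cones, with the nearest of the others at 93.0 CPM.

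The 629 cells without a type entered no comparison, and 9 of the 10 members had UMIs there. They held 882 UMIs of Nrl, 600 of Nr2e3, 396 of Neurod1, 261 of Crx, 240 of Rorb, 50 of Otx2, 40 of Mef2d, 29 of Thrb and 4 of Prdm1, and 0 of Rxrg. Nrl stood at 1748 to 2570 CPM in these cells and Crx at 515 to 820 CPM, ranges that overlap with those of photoreceptors.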

How the results depend on the processing

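Between rods and cones the 8 member calls held under each setting tried, while the number of genes called was 2904 without the retina block, 3328 in the wt/wt and 3091 in the ko/ko retinas alone, against 5003. Between amacrine-called and bipolar-called cells 3 members were called without the retina block, with DESeq2, with no filter on low counts, in the wt/wt retinas alone and in batch 2 alone, 4 in the ko/ko retinas alone, and 3 to 7 when single retinas were left out. The genes called there were 1456 without the block, 1620 with DESeq2, 1274 in wt/wt, 1174 in ko/ko and 817 in batch 2 retinas, and 1511 to 2842 with 1 retina left out (1636 without wt/wt replicate 3 and 1511 without ko/ko replicate 3), against 2743. In cones by opsin 16 genes were called without the retina block, 27 with DESeq2, 39 in wt/wt, 19 in ko/ko and 39 in batch 2 retinas, against 72. With total UMIs only in place of TMM, 59.7% of the calls between rods and cones were higher in cones (49.2% with TMM) and 57.3% of those by opsin were higher in Opn1mw cones (47.2% with TMM), with 8 and 0 members called as before. Between genotypes, no filter on low counts gave 1 gene each in photoreceptors, interneurons and rods, 28 in mesenchymal cells and 3 in RPE cells. Batch as a term gave 31 genes in mesenchymal and 4 in RPE cells, DESeq2 gave 1 in RPE cells, and single retinas left out gave 0 to 7 (7 without ko/ko replicate 2) and 0 to 2 (2 without wt/wt replicate 3). The causes were not tested, and no member was called between genotypes under any setting.

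The replicate numbers were checked for pairing. Deviations from the group means correlated at -0.09, 0.74 and 0.61 for numbers 1, 2 and 3 over 5664 genes, and ko/ko replicate 1 correlated best with wt/wt replicate 3, so the numbers were not taken as pairs. With the replicate block, 32 genes were called in mesenchymal and 4 in RPE cells, and no other genotype count changed by more than 1.5 times.

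The differences that changed sign were called under no setting, and the cause was not tested. On the log2 scale, Crx between rods and cones was 0.064 without the retina block, 0.031 with DESeq2, 0.0077 with limma-voom, 0.031 with RLE factors, 0.11 with total UMIs, 0.020 in cells of at least 500 UMIs and 0.13 in the ko/ko retinas, and -0.063 to 0.032 with 1 retina left out. Neurod1 was -0.093 with no filter and -0.0074 to 0.056 with 1 retina left out. By opsin, Mef2d was 0.0026 with total UMIs, 0.067 in the wt/wt retinas and -0.11 to 0.016 with 1 left out, Crx -0.064 with no filter and -0.014 to 0.077 with 1 left out, and Nr2e3 -0.24 in the wt/wt and 0.89 in the ko/ko retinas, against 0.28 in all. Between genotypes, Crx in interneurons was -0.0062 with limma-voom, Thrb in glia 0.036 with DESeq2, 0.0029 with RLE factors and 0.061 without the deepest 5% of cells, and Nr2e3 in glia 0.11 without those cells. With 1 retina left out, the genotype change in photoreceptors was -0.62 to 0.026 for Rorb and -0.16 to 0.12 for Otx2, and in rods -0.18 to 0.11 for Otx2 and -0.29 to 0.026 for Thrb. In interneurons it was -0.037 to 0.31 for Otx2, -0.094 to 0.13 for Neurod1 and -0.073 to 0.16 for Crx. In glia it was -0.23 to 0.12 for Thrb, -0.19 to 0.11 for Nr2e3, -0.24 to 0.14 for Neurod1 and -0.17 to 0.33 for Crx. In cones it was -0.041 to 0.33 for Otx2, -0.17 to 0.19 for Nr2e3, -0.50 to 0.051 for Rorb, -0.33 to 0.060 for Thrb, -0.045 to 0.23 for Rxrg and -0.24 to 0.0096 for Neurod1. The number of members highest in photoreceptors was 8 to 9 over 4 settings, the reported one included, and 8 only by the share of thinned cells with a UMI. Depth limits Rxrg and Prdm1 most, which were not tested in interneurons or glia.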

Other observations

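Rods were split at the median Malat1 share of their retina, a split chosen after the data were seen, to describe how the members varied among rods. Levels are over all UMIs other than Malat1. Neurod1 stood at 1792 ± 140 in rods high in Malat1 and at 1201 ± 239 in rods low in it, 1.49 times as much, and it was higher in 6 of 6 retinas. Prdm1 (12.6 ± 6.72 against 7.62 ± 3.35, 1.65 times), Thrb (133 against 88.8), Otx2 (1.40 times), Crx (1.31 times) and Rorb (1.30 times) were also higher in 6 of 6 retinas. Mef2d stood at 1.25 times, higher in 5 of 6, and Nr2e3 at 1.01 times, higher in 3 of 6. Nrl went the other way in every retina, at 2172 ± 204 against 2698 ± 326, or 0.81 times. Rxrg stood at 0.63 ± 0.73 against 1.56 ± 1.13, higher in 1 of 6. The 20382 rods high in Malat1 had a median of 333 UMIs and the 20343 low in it 517, and the part of depth in these values was not tested.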
